A study of Homo sapiens with 9 samples.

Results

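The S100 proteins and annexins described here are 10 genes among the 17911 in the deposited count table. They were taken by symbol: 6 S100 genes (S100A4, S100A6, S100A10, S100A11, S100A13 and S100A16) and 4 annexin genes (ANXA2, ANXA5, ANXA6 and ANXA11). All 10 were found in the table, and all 10 had enough counts to be tested in every comparison. RNA sequencing was done on 9 samples whose labels name MDA-MB-231, a widely used human triple-negative breast cancer cell line: 3 capsule samples and 6 liquid overlay spheroid samples, of which 3 are labelled small and 3 large. The labels give all 9 samples, capsules included, 1 treatment text that names liquid overlay, 5% Matrigel (a basement membrane extract), earlier trastuzumab (an antibody against ERBB2) and 96 h of culture before RNA was taken. They also give all 9 the cell type WT, without saying what WT stands for. Cultures were kept in RPMI with serum, and no untreated group is given.

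S100 proteins are small calcium-binding proteins with EF-hand loops, which mostly form dimers and expose a binding surface when calcium rises. Annexins bind acidic phospholipids on membranes in a calcium-dependent way through a repeated core domain, and their flexible N-terminal ends bind S100 partners. S100A10 is unusual in that it has lost calcium binding and pairs with ANXA2 in a complex at the plasma membrane. In breast cancer cells S100A4 is known as a motility-associated protein that binds non-muscle myosin.

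The 6 S100 members lie on chromosome 1 and the annexins on chromosomes 15 (ANXA2), 4 (ANXA5), 5 (ANXA6) and 10 (ANXA11). Promoter windows of 4 members are shown because S100A4 and S100A6 differed most between libraries and because S100A10 and ANXA2 encode the 2 partners of 1 complex. Each window runs from 250 bases before to 50 bases after the RefSeq start of the gene (GRCh38.p14), on the minus strand. Capitals mark matches on either strand to 4 motifs. The TATA box was searched as TATAAA. The AP-1 motif was searched as TGANTCA. The GC box was searched as GGGCGG, whose matches can overlap one another. The CCAAT box was searched by the letters in its name.
S100A4, chr1:153545757-153546056, minus strand: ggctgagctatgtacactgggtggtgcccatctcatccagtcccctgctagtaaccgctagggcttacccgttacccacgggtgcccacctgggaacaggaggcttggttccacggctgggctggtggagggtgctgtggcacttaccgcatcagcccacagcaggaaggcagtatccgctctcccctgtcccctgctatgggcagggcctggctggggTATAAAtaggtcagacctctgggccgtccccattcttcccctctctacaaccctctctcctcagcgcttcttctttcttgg
S100A6, chr1:153535942-153536241, minus strand: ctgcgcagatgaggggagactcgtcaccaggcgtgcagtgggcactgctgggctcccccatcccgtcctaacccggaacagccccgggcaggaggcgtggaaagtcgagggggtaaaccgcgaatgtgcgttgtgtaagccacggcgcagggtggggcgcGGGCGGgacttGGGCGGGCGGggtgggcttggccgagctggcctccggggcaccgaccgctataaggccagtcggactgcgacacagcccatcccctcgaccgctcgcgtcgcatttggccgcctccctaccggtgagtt
S100A10, chr1:151993810-151994109, minus strand: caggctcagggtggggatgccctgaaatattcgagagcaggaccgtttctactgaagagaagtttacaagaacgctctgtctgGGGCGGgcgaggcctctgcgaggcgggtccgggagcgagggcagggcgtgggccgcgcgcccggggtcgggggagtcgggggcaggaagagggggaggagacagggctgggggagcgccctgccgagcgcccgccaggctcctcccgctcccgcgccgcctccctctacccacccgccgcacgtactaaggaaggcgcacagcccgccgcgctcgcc
ANXA2, chr15:60397937-60398236, minus strand: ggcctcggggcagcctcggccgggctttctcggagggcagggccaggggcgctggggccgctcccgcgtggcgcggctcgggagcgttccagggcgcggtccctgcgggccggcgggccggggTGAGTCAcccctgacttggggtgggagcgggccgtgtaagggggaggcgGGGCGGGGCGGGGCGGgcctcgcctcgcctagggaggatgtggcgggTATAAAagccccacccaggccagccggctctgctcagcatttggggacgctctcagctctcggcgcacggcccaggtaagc

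The S100A4 window held 1 TATA box, no GC box and 8 CpG dinucleotides. The S100A6 window held 3 GC boxes and 31 CpG dinucleotides with no TATA box. The S100A10 window held 1 GC box and 32 CpG dinucleotides. The ANXA2 window held 1 TATA box, 1 AP-1 motif, 3 GC boxes and 32 CpG dinucleotides. Among 35116 RefSeq promoter windows of this length, 11.5% held the TATA box, 7.71% the AP-1 motif, 45.0% the GC box and 34.6% the CCAAT box, and the median window had 14 CpG dinucleotides. S100A4 and S100A6, which had the 2 largest differences between libraries, thus shared none of the 4 motifs in these windows. A match is a run of letters and not evidence of binding, and no match says only that these letters are not in this window.

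The libraries did not fall apart by culture format alone. The names of the 6 spheroid columns form 2 sets of 3, MDA.L.O and Sph.WT, and give no size, so neither set can be assigned to small or large spheroids. The capsule totals were 13212665 to 13735221 counts, the MDA.L.O totals 15525725 to 15988167 and the Sph.WT totals 16605098 to 33263076. Of 15 genes typical of MDA-MB-231, all 15 reached 1 CPM (counts per 1000000 counts of the library) in every Sph.WT library, against 8 in every capsule library and 10 in every MDA.L.O library. Their summed level was 949 to 977 CPM in capsules, 1152 to 1248 CPM in MDA.L.O libraries and 5633 to 5831 CPM in Sph.WT libraries, and NNMT had 0 counts in all capsule and MDA.L.O libraries. The 9 measured genes of a HEK293-like list, genes known from an embryonic kidney line, summed to 2534 to 2767 CPM in capsules, 2387 to 2733 CPM in MDA.L.O libraries and 29.0 to 32.6 CPM in Sph.WT libraries, where NEFL, PAX2 and LHX1 had 0 counts. Not every MDA-MB-231 gene was lower outside Sph.WT. GSTP1 averaged 306 CPM in capsules and 338 CPM in MDA.L.O libraries, against 199 CPM in Sph.WT libraries. VIM and MSN were lower than in Sph.WT but still averaged 339 and 191 CPM in capsules and 511 and 201 CPM in MDA.L.O libraries. The capsule and MDA.L.O libraries therefore go against their MDA-MB-231 label in most of these markers, while the Sph.WT libraries carry the MDA-MB-231 genes. The Sph.WT column names also end differently from the other 6, so column set, any difference in processing and these markers cannot be told apart, and the part of the markers in the results below was not tested. Each comparison is given for all 6 spheroid libraries and for each set alone.

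S100A4, the myosin-binding S100 protein, was the member lowest in capsules and next to the highest in Sph.WT libraries per kilobase of transcript. It had 1.59, 1.31 and 1.47 CPM in capsules 1 to 3, against 3.20, 2.44 and 3.35 CPM in the MDA.L.O libraries and 582, 629 and 649 CPM in the Sph.WT libraries. All 3 capsule libraries lay below all MDA.L.O libraries, and both of these sets lay far below Sph.WT in every library. The capsule values rest on 18 to 21 counts per library.

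S100A6 (calcyclin), which binds the calcyclin-binding protein CACYBP, had 2.95, 4.73 and 2.35 CPM in capsules, against 3.39, 3.94 and 1.87 CPM in MDA.L.O libraries and 862, 912 and 903 CPM in Sph.WT libraries. The capsule and MDA.L.O ranges overlapped, and every library of both was far below Sph.WT. S100A16, a broadly expressed S100 protein, had 4.84, 3.93 and 5.66 CPM in capsules, against 5.89, 7.38 and 6.05 CPM in MDA.L.O libraries and 171, 156 and 154 CPM in Sph.WT libraries. The 3 sets of S100A16 values did not overlap, though the highest capsule value and the lowest MDA.L.O value were close.

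S100A10, the ANXA2 partner, had 54.4, 55.9 and 50.5 CPM in capsules, against 79.0, 85.0 and 79.2 CPM in MDA.L.O libraries and 221, 242 and 255 CPM in Sph.WT libraries. S100A11, which binds annexin A1 and has been linked to plasma membrane repair, had 41.7, 37.6 and 37.5 CPM in capsules, against 49.1, 48.9 and 46.1 CPM in MDA.L.O libraries and 193, 206 and 209 CPM in Sph.WT libraries. For both genes the capsules were lowest, MDA.L.O intermediate and Sph.WT highest, without overlap. S100A13, which takes part in the unconventional release of FGF1 and IL1A, ran the other way. It had 45.5, 45.1 and 44.6 CPM in capsules, against 37.4, 38.1 and 37.0 CPM in MDA.L.O libraries and 36.9, 32.1 and 33.7 CPM in Sph.WT libraries, so the capsules were highest in CPM and the 2 spheroid sets nearly touched.

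Among the annexins, ANXA2 had 25.6, 26.5 and 23.7 CPM in capsules, against 28.3, 25.5 and 28.6 CPM in MDA.L.O libraries and 316, 268 and 313 CPM in Sph.WT libraries. ANXA5, whose protein is widely used as a probe for exposed phosphatidylserine, had 218, 222 and 217 CPM in capsules, against 211, 194 and 210 CPM in MDA.L.O libraries and 536, 566 and 582 CPM in Sph.WT libraries. The capsule and MDA.L.O ranges overlapped for ANXA2 but not for ANXA5, and Sph.WT was highest for both.

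ANXA6, an annexin with a doubled core, had 142, 144 and 145 CPM in capsules, against 156, 150 and 125 CPM in MDA.L.O libraries and 243, 249 and 244 CPM in Sph.WT libraries. ANXA11, which binds the penta-EF-hand protein PDCD6 and also associates with RNA granules, had 128, 125 and 115 CPM in capsules, against 129, 147 and 140 CPM in MDA.L.O libraries and 218, 200 and 213 CPM in Sph.WT libraries. For ANXA6 the MDA.L.O range enclosed the capsule range, and for ANXA11 the 2 ranges were separated by about 1 CPM.

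**Figure D1:**
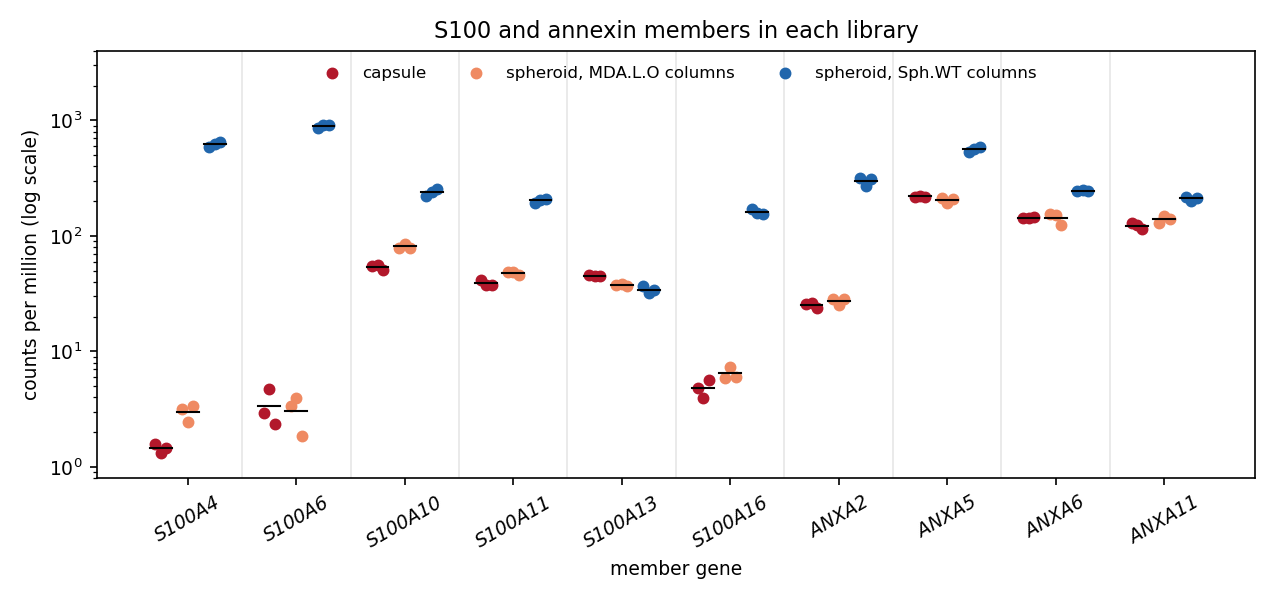
CPM of the 10 members in each of 9 libraries, on a log axis, with capsules left, spheroid MDA.L.O columns in the middle and spheroid Sph.WT columns right; points are libraries and lines are means of 3. S100A4, S100A6 and S100A16 lie at or under 7.38 CPM in capsules and MDA.L.O libraries and at or above 154 CPM in Sph.WT libraries, while S100A13 lies between 32.1 and 45.5 CPM in all 9.

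When capsules were compared with all 6 spheroid libraries, which asks how the 2 culture formats differ, 0 of the 10 members passed the test, against 3.76% of the 16985 genes tested. With edgeR's quasi-likelihood test and Benjamini-Hochberg adjustment over all genes, the members' adjusted p-values ran between 0.127 and 0.325. An unadjusted p under 0.05 was reached by 6 of 10, beside 4929 of the 16985 genes tested. The largest fitted difference was for S100A4, at -8.04 ± 2.75 on the log2 scale (SE). S100A4 averaged 1.46 ± 0.14 CPM in 3 capsules and 312 ± 339 CPM in 6 spheroid libraries (SD), whose lowest, median and highest values were 2.44, 293 and 649 CPM. S100A6 followed at -7.37 ± 2.77, S100A16 at -4.41 ± 1.64 and ANXA2 at -2.97 ± 1.21. S100A13 was the only member with a positive difference, 0.24 ± 0.13.

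In CPM, the capsules lay wholly below the spheroid libraries for 5 members (S100A4, S100A10, S100A11, S100A16 and ANXA11), beside 15.1% of all genes, and wholly above them for S100A13, beside 11.2% of all genes. The median log2 difference was -1.85 over the 10 members and -0.06 over all genes tested. DESeq2's Wald test called 6 of the 10 lower (S100A4, S100A6, S100A10, S100A11, S100A16 and ANXA2). Beside this, it called 4023 of 16985 genes (23.7%) in either direction, 2809 of them lower. With limma-voom 0 of the 10 passed, beside 552 of 16985 genes. The log2 differences fitted by limma-voom were smaller, at -4.94 ± 6.34 for S100A4 (adjusted p = 0.581), -4.07 ± 5.41 for S100A6 and -2.83 ± 2.66 for S100A16 (SE). With each column set given its own mean in the fit, all 10 were called, beside 74.4% of all genes, S100A4 at -4.96 and ANXA6 at -0.47. The 6 spheroid libraries hold 2 separated sets, so their SD mostly describes the gap between sets. In bulk RNA, fewer cells of a type and less RNA per cell cannot be told apart.

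Set against the MDA.L.O libraries alone, the capsules differed little in these genes. The test called 4 of 10 members, a share below the 50.1% of 15919 genes called in this comparison. S100A4 fell by 0.89 ± 0.25 on the log2 scale in capsules (adjusted p = 0.00544, edgeR's quasi-likelihood test with Benjamini-Hochberg adjustment) and S100A10 fell by 0.45 ± 0.08 (adjusted p = 7.4e-05, the same test). S100A13 rose by 0.41 ± 0.08 (adjusted p = 0.000257) and ANXA5 by 0.24 ± 0.07 (adjusted p = 0.00589), both in edgeR's fit. The lower calls, 2 of 10 members, stand beside 25.4% of genes called lower, and the higher calls, 2 of 10, beside 24.7% called higher.

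The other 6 members did not pass in this comparison. Their log2 differences were -0.28 for S100A16, -0.16 for S100A11, -0.03 for ANXA11, 0.03 for ANXA2, 0.14 for ANXA6 and 0.27 for S100A6. The 95% intervals, normal approximations from the SE, allowed -0.16 to 0.21 for ANXA2, -0.18 to 0.11 for ANXA11 and -0.27 to 0.81 for S100A6, the last on 29 to 65 counts per library. With library totals instead of TMM the median of all genes lay at -0.16 (-0.01 with TMM), and the test then called S100A11 (-0.30), S100A16 (-0.42) and ANXA11 (-0.18) lower and no longer called ANXA5 (0.10). ANXA6 passed only when MDA.L.O replicate 1 was left out (0.21, adjusted p = 0.0417 in edgeR's fit).

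Set against the Sph.WT libraries alone, 9 of 10 members fell in capsules by edgeR's quasi-likelihood test with Benjamini-Hochberg adjustment, in a comparison in which 86.1% of 16157 genes were called and 42.9% were called lower. S100A4 was 513-fold lower (-9.00 ± 0.11 on the log2 scale), with only 122 of the genes tested having a lower log2 value. S100A6 was 321-fold lower (-8.33 ± 0.14) and S100A16 was 40.3-fold lower (-5.33 ± 0.11). The calcium-insensitive S100A10 was 5.40-fold lower and S100A11 was 6.31-fold lower.

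The annexins spanned a narrower range. ANXA2 was 14.3-fold lower in capsules than in Sph.WT (-3.84 ± 0.09), ANXA5 3.10-fold lower (-1.63 ± 0.07), ANXA6 2.07-fold lower and ANXA11 2.07-fold lower. All 9 called members were at least 2-fold lower, beside 25.4% of all genes tested. The median log2 difference was -2.55 over the 10 members and 0.01 over all genes. S100A13 did not pass, at 0.12 with a 95% interval of -0.04 to 0.28. With library totals the median of all genes lay at 0.29, and the test then called S100A13 higher in capsules (0.40).

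**Figure D2:**
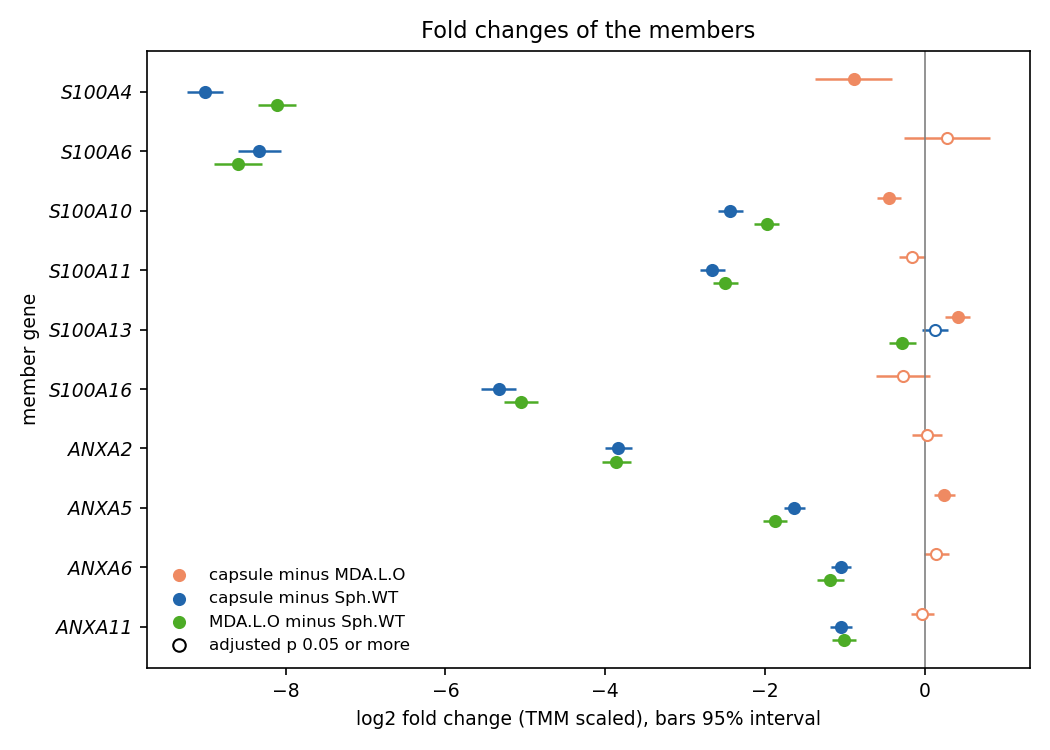
Log2 fold changes of each member (x axis, TMM scaled) with bars for 95% intervals, for capsule minus MDA.L.O, capsule minus Sph.WT and MDA.L.O minus Sph.WT, 3 libraries a set; open circles did not pass an adjusted p of 0.05. Both contrasts with Sph.WT reach -8.11 or lower for S100A4 and S100A6, whereas capsule minus MDA.L.O stays between -0.89 and 0.41.

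The 2 spheroid sets, which the labels place in 1 culture format, differed from each other in most members. In MDA.L.O against Sph.WT, 10 of 10 members were called lower in MDA.L.O, in a comparison with 85.2% of 16727 genes called and 42.2% called lower. S100A6 was 386-fold lower (-8.59 ± 0.15), S100A4 276-fold lower (-8.11 ± 0.12) and S100A16 33.2-fold lower (-5.05 ± 0.11). ANXA2 was 14.5-fold lower, S100A11 5.64-fold lower, S100A10 3.94-fold lower and ANXA5 3.66-fold lower, with ANXA6 at 2.27-fold and ANXA11 at 2.02-fold lower.

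S100A13 was called lower in MDA.L.O at -0.28 ± 0.09 (adjusted p = 0.00642, edgeR's quasi-likelihood test with Benjamini-Hochberg adjustment), but with library totals its sign turned to 0.13 without a call, and its CPM values were all higher in MDA.L.O than in Sph.WT. No direction is therefore given for S100A13 between the spheroid sets. With library totals the median of all genes lay at 0.43 in this comparison (0.01 with TMM), and the other 9 members stayed lower. The 2 contrasts with Sph.WT share the Sph.WT libraries, so their values for the members are given side by side and not as independent results.

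**Figure D3:**
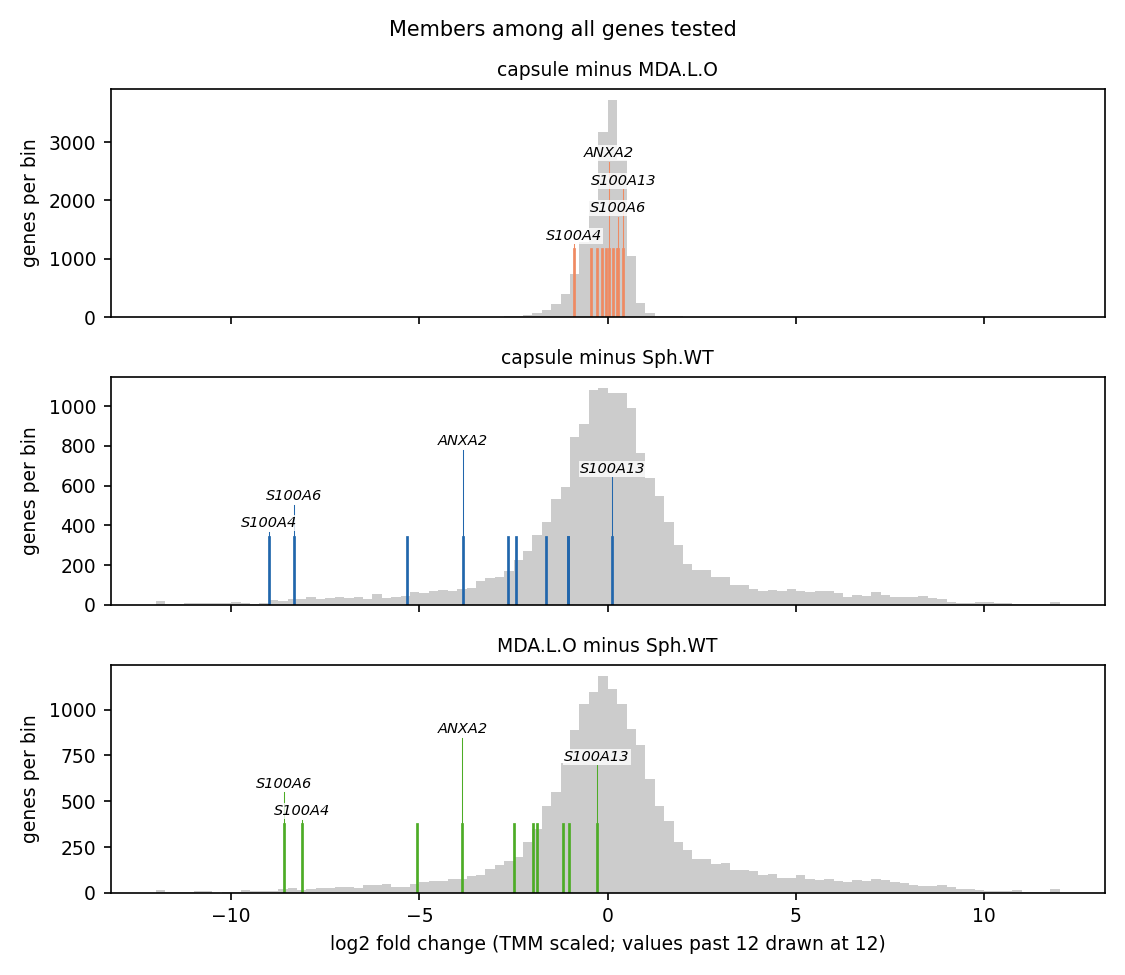
Histograms of the log2 fold change of all genes tested (grey, genes per bin) in 3 comparisons, with coloured lines at the 10 members and the names of 4. The members lie inside the bulk of genes for capsule minus MDA.L.O, while in both contrasts with Sph.WT S100A4 and S100A6 lie at -8.11 or lower.

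Added together, the 10 members took 0.0658% ± 0.00134 of all counts in capsules, 0.0694% ± 0.00144 in MDA.L.O libraries and 0.347% ± 0.00884 in Sph.WT libraries (SD, n = 3 each). The 6 S100 members took 0.0147% in capsules, 0.0179% in MDA.L.O libraries and 0.215% in Sph.WT libraries. The 4 annexins took 0.0511% in capsules, 0.0515% in MDA.L.O libraries and 0.132% in Sph.WT libraries. As shares of counts, without regard to length, annexins thus exceeded S100 genes in capsules and MDA.L.O libraries, and the order was turned round in Sph.WT libraries.

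To compare genes with each other, CPM was divided by the length of each gene's principal transcript (CPM per kilobase). ANXA2 was taken with its own counts alone. Its pseudogene ANXA2P2, described below, held more counts than ANXA2 in every library, so the ranks of ANXA2 are uncertain. ANXA5 led in capsules at 124 ± 1.61 CPM per kilobase, followed by S100A13 at 65.7 and S100A11 at 65.5, which overlapped, then ANXA6 at 55.4 and S100A10 at 44.6. ANXA11 (17.6) and ANXA2 (15.1) came next, and S100A6 (4.97), S100A16 (4.20) and S100A4 (2.43) were last, with S100A6 and S100A16 overlapping. In MDA.L.O libraries ANXA5 also led at 116 ± 5.41, ahead of S100A11 at 80.8 and S100A10 at 67.4, and S100A16, S100A4 and S100A6 closed the order at 5.62, 4.99 and 4.56, overlapping each other. With the joined exons of each gene as its length, S100A11 led in MDA.L.O libraries at 70.6, ahead of ANXA5 at 67.6, and over the 3 sets 16 of 30 ranks moved.

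In Sph.WT libraries S100A6 led at 1326 ± 39.5 CPM per kilobase and S100A4 followed at 1033 ± 57.1. S100A11 (342) and ANXA5 (319) overlapped, as did S100A10 (199) and ANXA2 (178), and below them came S100A16 (140), ANXA6 (94.5), S100A13 (49.9) and ANXA11 (30.2). By CPM, without length, S100A6 stood at the 99.5th percentile of the genes in the table in Sph.WT libraries and at the 29.7th in capsules. With the joined exons of each gene as its length, S100A13 moved from rank 2 to rank 5 in capsules, since its exons join to 2216 bases against 686 in the principal transcript.

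S100A10 protein is known to be degraded when it is not bound to ANXA2, which makes the ratio of their RNAs of interest. The ratio of S100A10 to ANXA2 counts was 2.12 ± 0.0122 in capsules, 2.96 ± 0.324 in MDA.L.O libraries and 0.806 ± 0.101 in Sph.WT libraries (SD, n = 3 each). This ratio of counts, not divided by length, lay above 1 in every capsule and MDA.L.O library and below 1 in every Sph.WT library, with no overlap between any 2 sets. Per kilobase, S100A10 averaged 199 and ANXA2 178 in Sph.WT libraries, so the crossing of 1 depends on length. Each comparison of 3 against 3 libraries gave p = 0.1 by a two-sided exact permutation test, the smallest p that this design allows (0.133 adjusted over 8 tests). Capsules against all 6 spheroid libraries gave an exact permutation p = 0.476.

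ANXA2 has a processed pseudogene, ANXA2P2, whose near-identical sequence can take its reads. ANXA2P2 had 37.5 ± 1.91 CPM in capsules, 39.3 ± 2.28 CPM in MDA.L.O libraries and 599 ± 11.9 CPM in Sph.WT libraries, highest in Sph.WT libraries like ANXA2. The split of reads between the 2 is uncertain, and so is the place of ANXA2 in the order per kilobase above. With both summed, an alternative chosen after seeing the data, the S100A10 ratio was 0.855 in capsules, 1.22 in MDA.L.O libraries and 0.267 in Sph.WT libraries, which kept the order of the sets. The log2 difference of the sum was 0.06 in capsules against MDA.L.O, -4.11 in capsules against Sph.WT and -4.17 in MDA.L.O against Sph.WT.

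**Figure D4:**
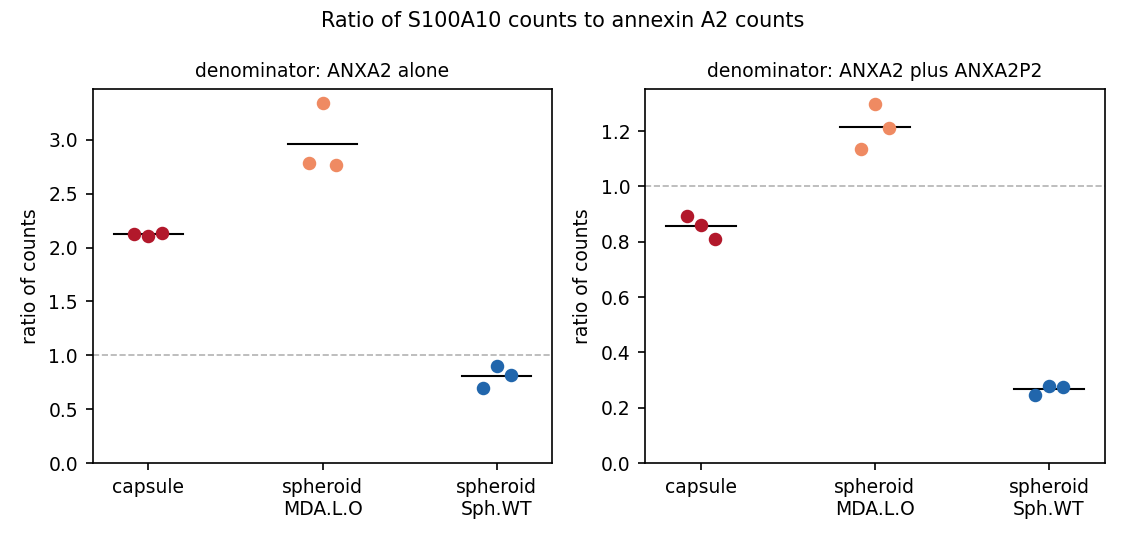
Ratio of S100A10 counts to ANXA2 counts (left panel) and to ANXA2 plus ANXA2P2 counts (right panel) in each library, with capsules left, then spheroid MDA.L.O and spheroid Sph.WT; black lines are means of 3 and the dashed line is a ratio of 1. With ANXA2 alone the means are 2.12, 2.96 and 0.806, and with the pseudogene added they are 0.855, 1.22 and 0.267.

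Along chromosome 1, the S100 genes of the table stand in the order S100A10, S100A11, S100A9, S100A8, S100A6, S100A5, S100A4, S100A3, S100A2, S100A16, S100A14, S100A13 and S100A1, with a gap of 1320.8 kb after S100A11. Neighbours did not share 1 pattern. Between S100A6 and S100A16, every gene was lower in both other sets than in Sph.WT in mean CPM. S100A3, next to S100A4, had 0 counts in all capsule libraries, 0.297 ± 0.0982 CPM in MDA.L.O libraries and 27.5 ± 3.76 CPM in Sph.WT libraries, so it was at least 124-fold lower in capsules than in Sph.WT against a floor of 3 counts per library.

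S100A2, which is known from stratified epithelia, had 0.565 ± 0.254 CPM in capsules, 1.49 ± 0.204 CPM in MDA.L.O libraries and 27.5 ± 2.90 CPM in Sph.WT libraries. S100A14 and S100A13, the next genes after S100A16, did not show this. S100A1, last in the order, was again lower in mean CPM in both other sets, at 2.68 CPM in capsules and 4.69 CPM in MDA.L.O libraries. Its mean in Sph.WT libraries was 4.85 CPM. S100A14 averaged 6.12 CPM in capsules, 5.87 CPM in MDA.L.O libraries and 5.44 CPM in Sph.WT libraries and passed in none of the comparisons. S100A9 and S100A8, the calprotectin subunits of myeloid cells, stayed under 3 CPM in every library.

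The strand used in counting is not given in the sources used here, so reads of overlapping genes cannot be told apart. In GENCODE v29, exons of S100A13 share 235 bases with S100A1 on the opposite strand and 536 bases with a processed transcript, and exons of S100A6 share 23 bases with an antisense RNA. S100A1 averaged 2.68 CPM in capsules, 4.69 CPM in MDA.L.O libraries and 4.85 CPM in Sph.WT libraries. The other 8 members share no exon bases with another annotated gene there, but in RefSeq the spans of S100A4 and S100A5 overlap.

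**Figure D5:**
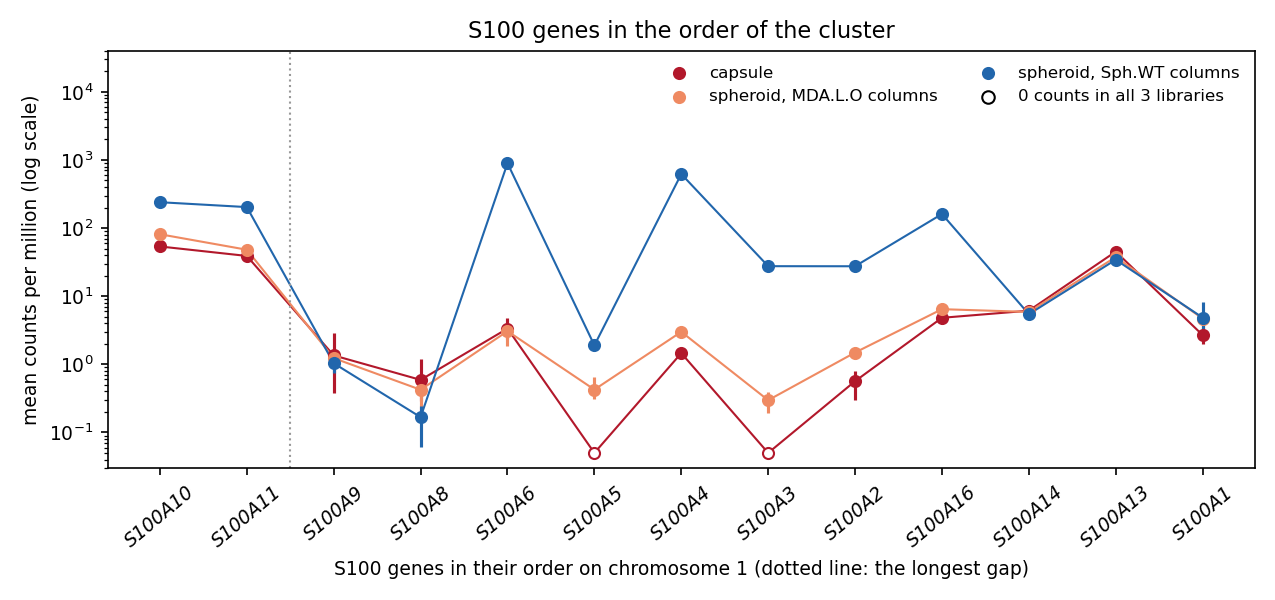
Mean CPM (log axis) of 13 S100 genes in their order on chromosome 1, for capsules, spheroid MDA.L.O columns and spheroid Sph.WT columns; bars span the lowest to the highest of 3 libraries, open circles are 0 counts in all 3 and are drawn near the bottom of the axis, and the dotted line is the 1320.8 kb gap. Levels are to be compared between sets within a gene: Sph.WT stands above the other sets from S100A6 to S100A16, the sets lie close together at S100A14, and capsules are highest at S100A13.

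Beyond the members, 9 fixed lists of related genes were counted, taking genes with at least 1 CPM in at least 3 libraries. The 3 libraries of 1 set could meet this rule alone. A gene that entered only through the Sph.WT libraries was thereby set to be lower in the other sets, so its lower call is no support. S100A3, S100A5, FLG, HRNR, FGF1 and IL1A are among such genes. Against all 6 spheroid libraries, the 82 genes of the lists held 2 calls in edgeR's quasi-likelihood test with Benjamini-Hochberg adjustment, beside 3.76% of all genes. Both were among 20 binding partners of the members. LGALS1 (galectin-1) was lower in capsules at -2.92 ± 0.63 (adjusted p = 0.0428), and CACYBP, the S100A6 partner, was higher at 0.62 ± 0.10 (adjusted p = 0.021). With library totals 2 partners were lower, LGALS1 among them, and 0 higher.

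Of the other annexins, all 7 that were measured were called lower in capsules than in Sph.WT, with a median log2 of -5.70, beside 42.9% of all genes called lower. All 7 were also called lower in MDA.L.O than in Sph.WT, with a median log2 of -5.36, beside 42.2% of all genes. ANXA1, an anti-inflammatory annexin and partner of S100A11, averaged 5.16 ± 0.137 CPM in capsules, 16.5 ± 1.11 CPM in MDA.L.O libraries and 507 ± 33.7 CPM in Sph.WT libraries. ANXA8 averaged 0.520 CPM in capsules and 37.2 CPM in Sph.WT libraries, and ANXA3 2.63 CPM in MDA.L.O and 144 CPM in Sph.WT libraries. ANXA8 and ANXA8L1, at -5.70 in capsules against Sph.WT, averaged under 1 CPM in capsules and in MDA.L.O libraries. They would not have entered the list without the Sph.WT libraries, so their lower calls followed in part from the rule of entry. Capsules against MDA.L.O gave 2 of 5 lower, beside 25.4% of all genes, and 0 higher, ANXA1 at -1.53 ± 0.13 and ANXA4 at -0.27 ± 0.10.

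The list of other S100 genes also holds S100PBP, which binds S100P and is not itself an S100 gene. Of the 8 genes of the list tested in capsules against Sph.WT, 4 were lower, beside 42.9% of all genes, and 2 higher. S100A3 and S100A5, among the lower, entered the list only through the Sph.WT libraries. Of 8 in MDA.L.O against Sph.WT, 3 were lower, beside 42.2% of all genes, and 2 higher. S100A3, S100A2 and S100A5 were lower in both contrasts and S100A1 only in the contrast with capsules, a difference between contrasts that was not tested, while S100P was higher in both, at 7.17 ± 2.27 CPM in capsules and 5.38 ± 0.672 CPM in MDA.L.O libraries, against 2.32 ± 0.831 CPM in Sph.WT libraries. S100PBP, the other gene that was higher in both, averaged 57.5 CPM in capsules, 64.3 CPM in MDA.L.O libraries and 29.2 CPM in Sph.WT libraries. In capsules against MDA.L.O, 2 of 6 were lower (S100A2 and S100A1), beside 25.4% of all genes, and 1 was higher (S100P), a call that was lost with library totals.

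The fused-type S100 genes, large epidermal proteins with an S100 domain, had 3 measured members. FLG (filaggrin) averaged 0.0243 CPM in capsules, 0.0845 CPM in MDA.L.O libraries and 25.8 CPM in Sph.WT libraries, and HRNR averaged 0.0243 CPM in capsules, 0.0428 CPM in MDA.L.O libraries and 9.89 CPM in Sph.WT libraries. Both were called lower in each contrast with Sph.WT, beside 42.9% of all genes called lower in capsules and 42.2% in MDA.L.O. FLG and HRNR entered the list only through the Sph.WT libraries, so the direction of these calls was set by the rule of entry. TCHH averaged 1.46 CPM in capsules, 4.57 CPM in MDA.L.O libraries and 1.68 CPM in Sph.WT libraries. It was called lower in capsules than in MDA.L.O, beside 25.4% of all genes. It was also called higher in MDA.L.O than in Sph.WT, where 85.2% of all genes were called in either direction.

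Among 20 binding partners, 14 were lower and 4 higher in capsules against Sph.WT (13 and 5 with library totals), a comparison with 86.1% of all genes called and 42.9% lower. In MDA.L.O against Sph.WT, 14 were lower and 4 higher (13 and 6 with library totals), beside 85.2% of all genes called and 42.2% lower. MYL9, a myosin light chain, averaged 1.08 CPM in capsules, 0.360 CPM in MDA.L.O libraries and 175 CPM in Sph.WT libraries. SYT1, a synaptotagmin that joins S100A13 in the FGF1 release complex, was higher in both contrasts, at 12.4 CPM in capsules and 12.4 CPM in MDA.L.O libraries, against 1.96 CPM in Sph.WT libraries. IL1A averaged 0.123 CPM in capsules and 6.06 CPM in Sph.WT libraries, and FGF1 0.0635 CPM in MDA.L.O and 2.72 CPM in Sph.WT libraries. Both entered the list only through the Sph.WT libraries. Against MDA.L.O, 5 of 17 were lower, beside 25.4% of all genes, led by LGALS1 (-1.77) and AHNAK2 (-0.81), and 3 were higher, led by CACYBP (0.54) and SUGT1 (0.36).

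Genes of plasminogen activation at the cell surface, where the S100A10 and ANXA2 complex is known to act, were lower in capsules than in MDA.L.O for 9 of 11 and higher for 2, beside 25.4% and 24.7% of all genes. PLAU (urokinase) averaged 0.989 CPM in capsules, 3.86 CPM in MDA.L.O libraries and 186 CPM in Sph.WT libraries. MMP2 ran differently, at 13.7 CPM in capsules, 54.0 CPM in MDA.L.O libraries and 1.88 CPM in Sph.WT libraries. ENO1 (0.47) and PLGRKT (0.41), a plasminogen receptor, were the 2 higher in capsules than in MDA.L.O on the log2 scale. With library totals 9 were lower and only 1 higher. Against Sph.WT, 7 of 11 were lower in capsules, beside 42.9% of all genes, and 2 higher. In MDA.L.O 8 of 11 were lower (7 with library totals), beside 42.2% of all genes, and 3 higher, with SERPINE2 and MMP2 among the higher in both.

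The list of membrane repair genes shares CAPN1, CAPN2 and CAPNS1 with the penta-EF-hand list. In capsules against Sph.WT, 14 of 16 were lower, beside 42.9% of all genes, and 1 higher. In MDA.L.O against Sph.WT, 14 of 17 were lower, beside 42.2% of all genes, and 2 higher. MYOF (myoferlin) averaged 5.51 ± 0.494 CPM in capsules, 12.6 ± 1.83 CPM in MDA.L.O libraries and 1018 ± 99.5 CPM in Sph.WT libraries, and CAV1 (caveolin-1), also on the MDA-MB-231-like list, averaged 16.8 CPM in capsules, 20.8 CPM in MDA.L.O libraries and 603 CPM in Sph.WT libraries. VPS4A, an ATPase of the ESCRT machinery, was higher in capsules than in Sph.WT (0.51 ± 0.07). Against MDA.L.O, 6 of 17 were lower, beside 25.4% of all genes, and 0 higher, with OTOF (-1.77) and EHD2 (-1.13) the lowest, and library totals made this 10 of 17.

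Calmodulins and penta-EF-hand proteins, which also bind calcium through EF-hands, were counted as well. In capsules against Sph.WT, 6 of 10 were lower, beside 42.9% of all genes, led by CAPN2 (-2.50) and CAPN1 (-1.73), and 2 were higher, PEF1 (1.51) and CALM3 (0.38). In MDA.L.O against Sph.WT, 8 of 10 were lower, beside 42.2% of all genes, and 2 higher, with 5 lower under library totals. In capsules against MDA.L.O, 1 of 10 was lower (CAPN1, -0.34), beside 25.4% of all genes, and 4 were higher, beside 24.7%, led by CALM2 (0.50) and SRI (0.36), which became 3 lower and 3 higher with library totals.

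Phospholipid scramblases and flippases, which set the exposure of the phosphatidylserine that annexins bind, were lower in capsules than in Sph.WT for 7 of 8 and higher for 0 (6 and 1 with library totals), beside 42.9% of all genes called lower. In MDA.L.O against Sph.WT, 6 of 8 were lower and 0 higher (6 and 2 with library totals), beside 42.2% of all genes called lower. PLSCR4 averaged 2.76 CPM in capsules, 2.10 CPM in MDA.L.O libraries and 56.6 CPM in Sph.WT libraries, and TMEM30A, a flippase subunit, 34.9 CPM in capsules, 45.7 CPM in MDA.L.O libraries and 211 CPM in Sph.WT libraries. Capsules against MDA.L.O gave 2 of 8 lower (XKR8, -0.50, and TMEM30A, -0.24), beside 25.4% of all genes, and 2 higher, with ATP8A1 (0.30) among them, and with library totals 2 lower and 0 higher.

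Of the relatives of ANXA2 in the last list, ANXA2P2 was lower in both contrasts with Sph.WT, as its levels above show. ANXA2R, an annexin A2 receptor gene, averaged 1.27 CPM in MDA.L.O and 0.422 CPM in Sph.WT libraries and was called higher in MDA.L.O.

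Markers of other cell types also differed in summed level between the sets. Luminal breast markers, of which 7 were in the table, summed to 160 to 166 CPM in capsules, 246 to 270 CPM in MDA.L.O libraries and 851 to 890 CPM in Sph.WT libraries, where PGR had 0 counts. The 7 measured fibroblast markers summed to 44.1 to 48.4 CPM in capsules, 92.6 to 104 CPM in MDA.L.O libraries and 167 to 199 CPM in Sph.WT libraries. The 4 measured endothelial markers stayed at 2.13 to 2.65 CPM in capsules, 3.14 to 4.19 CPM in MDA.L.O libraries and 6.08 to 10.4 CPM in Sph.WT libraries. The 3 measured immune markers summed to 14.78 to 16.05 CPM in capsules, 36.6 to 39.4 CPM in MDA.L.O libraries and 130 to 147 CPM in Sph.WT libraries. Their part in the members' differences was not tested.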

How the data were processed

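The authors deposited raw counts, whole read numbers for 17911 genes in 9 columns, without normalization. Their processing notes name hg38, featureCounts and limma and give no versions. The aligner, annotation and strand setting are not given in the sources used here. Capsule columns were matched to samples by name, and the 6 spheroid columns to the spheroid group, since their names give no size. Library totals ran between 13212665 and 33263076 counts. The 10 members and all lists were chosen with earlier results of these data known. Nothing says that replicates came from separate cultures, so p-values measure only the spread between these samples, which may be technical. All 9 pairs of libraries within a set differed beyond sampling noise (chi-square tests of counts, at least 1203 genes each).

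From the counts, CPM was computed per library total, and genes were tested over the whole table with edgeR 4.0.16 in R 4.3.3 (TMM, filterByExpr, quasi-likelihood test, Benjamini-Hochberg, threshold 0.05), in 4 comparisons. The comparisons of capsules with each column set were planned as alternatives for the pooled one, and their own alternatives were added after seeing the data. CPM uses library totals and fold changes use TMM scaling, so their signs can differ for small changes. DESeq2 1.42.0 and limma 3.58.1 (voom) were alternatives. On simulated counts with 200 genes changed 2-fold, edgeR recovered 200 of 200 in capsules against spheroids among 16520 genes, 200 in capsules against MDA.L.O, 197 in capsules against Sph.WT and 200 in MDA.L.O against Sph.WT, with 10, 9, 5 and 11 false calls in the same order. All simulated libraries shared 1 mean per unchanged gene, so the gap between the spheroid sets was not simulated. Changed genes were drawn only from those above a minimum expected count, and all genes were given 1 fixed spread between replicates. Recovery at low counts or with a wider spread was therefore not measured. Count ratios were compared by exact permutation with scipy 1.17.1. The SE of each edgeR log2 difference was derived from its size and its F statistic, and the 95% intervals rest on this SE. Floors (3 counts per library) cover counting error only. Named genes were all members and, from each list, the 2 called genes with the largest rise and the 2 with the largest fall in a comparison, with some neighbours of the members on chromosome 1 added after their values were seen. A few genes that this rule names are not reported here. Gene positions, promoter windows and their sequences are from RefSeq (GRCh38.p14), and transcript lengths and overlaps from GENCODE v29. Replicate numbers did not pair the samples, as the closing section gives.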

Additional observations from a re-analysis of the deposited data

How the results depend on the processing

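For capsules against all spheroid libraries, 639 genes were called by edgeR's quasi-likelihood test, 359 with library totals, 4023 with DESeq2, 177 with a 2-fold minimum, 7970 against the MDA.L.O columns alone, 13909 against the Sph.WT columns alone and 12643 with each set given its own mean. Leaving out 1 library gave 0 to 604 calls: 0 without any 1 capsule library (2448 to 2620 genes at an unadjusted p under 0.05), 604, 287 and 409 without MDA.L.O replicates 1, 2 and 3, and 154, 240 and 207 without Sph.WT replicates 1, 2 and 3. The replicate block, the number in the column name, gave 0 calls (2856 at an unadjusted p under 0.05), but the numbers did not pair the samples: over 9 same-numbered pairs the correlations of deviations ran between -0.116 and 0.0222, and 1 of 9 libraries correlated best with its own number. The block gave 7145 calls for capsules against MDA.L.O, 13876 against Sph.WT and 13953 between the spheroid sets. The 2 calls within the lists became 37 with DESeq2, beside 23.7% of all genes. They became 1 with limma-voom, beside 552 of 16985 genes, and 0 with the replicate block. They became 39 with MDA.L.O alone (beside 50.1% of all genes), 69 with Sph.WT alone (86.1%) and 67 with own means (74.4%). When 1 library was left out, the lists held 0 to 3 calls. ANXA5, -1.01 against all spheroid libraries, turned to 0.24 against MDA.L.O alone. S100A6 (-7.37 to 0.27), ANXA2 (-2.97 to 0.03) and ANXA6 (-0.60 to 0.14) changed sign in the same way, without a call in either comparison. S100A13, -0.28 between the spheroid sets, turned to 0.13 with library totals. The cause of these changes was not tested. For the 3 comparisons of sets, every other count run stayed within 1.5 times, at 6592 to 7925, 13757 to 13988 and 13972 to 14326 calls with 1 library left out. With library totals, calls were 2275 higher and 5852 lower for capsules against MDA.L.O (3934 and 4036 with TMM), 8202 and 5721 for capsules against Sph.WT (6977 and 6932) and 9116 and 5246 between the spheroid sets (7208 and 7051), and for capsules against all spheroids 99 and 260 (390 and 249). Depth limits S100A4 and S100A6 in capsules, at 18 to 65 counts per library.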
